A study of Mus musculus with 6 samples.

Results

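Lyve1, Cd163, Mrc1, Folr2, Timd4, F13a1, Fcna, Pf4, Stab1 and Marco are genes by which perivascular, LYVE1-positive macrophages and other tissue-resident macrophages are commonly recognised, and most of them encode proteins that bind material outside the cell. They were picked by name as markers, at a point when their differences between these libraries were already known, so those differences are a description, with the standard errors and intervals of a fit across all genes, and no test of them is offered. All 10 had a row among the 23930 genes of the table. The libraries came from CD31-positive cells, sorted by flow cytometry out of subcutaneous Lewis lung carcinoma (LLC) tumours of C57/Bl6 mice 2 weeks after the LLC cells, an established mouse tumour line, had been injected. The injected LLC cells overexpressed BMP9, a ligand of the bone morphogenetic protein family, in 3 libraries (BMP9 replicates 4, 5 and 6) and were control cells in 3 (control replicates 1, 2 and 3). The tumour cells, and not the sorted host cells, carried the overexpression. The labels give no age or sex of the hosts, and they do not say whether each library came from its own tumour, so the spread between libraries may be technical. Levels are in RPM, which scales each gene by the sum of all reads in its library, from a panel with 1 amplicon per gene, which lets levels of different genes be compared only roughly.

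Macrophages that sit along vessels clear debris, cell-free haemoglobin, modified lipoproteins and dying cells through scavenger receptors and lectins. Many of them settled in the tissue early and express LYVE1, CD163, CD206 and the folate receptor beta at low MHC class II, whereas macrophages replenished from blood monocytes tend to show the reverse. In tumours, macrophages with such receptors are often found around blood vessels. CD31 is an adhesion molecule of endothelium that platelets and many leukocytes also carry.

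Library depth ran from 1321762 reads (control replicate 2) to 28380957 reads (BMP9 replicate 6), so that 3 reads stood for 2.27 RPM in the shallowest library and 0.106 RPM in the deepest. The 3 control libraries and BMP9 replicate 4 carry an earlier run time stamp, and BMP9 replicates 5 and 6 a later one. Pecam1, which encodes CD31, averaged 448 ± 84.3 RPM over control and 303 ± 53.5 RPM over BMP9 libraries (SD, n = 3 each), a log2 difference of -0.56 (limma adjusted p = 0.12). Against the labelled gate, 14 defining endothelial genes together reached only 27.9 to 81.0 RPM in any control library and 38.0 to 55.6 RPM in any BMP9 library. The sums of 14 pan-macrophage markers were 8479 to 9382 RPM and 20969 to 26353 RPM in the same groups. The single marker Lyz2 averaged 4528 RPM of a mean sum of 8894 RPM in control, and 10540 of 23213 RPM in BMP9 libraries. In such bulk samples more cells of a type and more RNA per cell cannot be told apart.

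The sequences upstream of Fcna, Mrc1, Stab1, Cd163 and Marco are shown because the first 4 of these genes were high together and Marco was next to 0. They are RefSeq promoters on build GRCm38.p6, which held 9 of the 10 genes in 11 windows. The 250 bases before each RefSeq start were searched on both strands, and the printed stretch ends before the first base that GENCODE M21 assigns to the gene. Capitals mark matches to GAGGAA, a core of sites for the myeloid factor PU.1, or to TGCTGA, a half-site of MAF factors. Read 5′ to 3′ on the strand of the gene, Fcna lies at chr2:25628031-25628224 (minus strand), Mrc1 at chr2:14229164-14229391 (plus strand), Stab1 at chr14:31168642-31168891 (minus strand), Cd163 at chr6:124304401-124304650 (plus strand) and Marco at chr1:120505025-120505274 (minus strand).
Fcna: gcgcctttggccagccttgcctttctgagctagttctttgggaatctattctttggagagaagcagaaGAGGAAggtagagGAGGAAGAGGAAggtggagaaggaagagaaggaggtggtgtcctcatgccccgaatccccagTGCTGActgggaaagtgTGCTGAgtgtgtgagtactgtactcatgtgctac
Mrc1: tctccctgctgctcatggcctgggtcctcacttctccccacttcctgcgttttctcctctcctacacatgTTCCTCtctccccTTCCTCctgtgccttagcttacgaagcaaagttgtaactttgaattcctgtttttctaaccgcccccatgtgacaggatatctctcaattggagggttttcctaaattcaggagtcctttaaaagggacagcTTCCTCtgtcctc
Stab1: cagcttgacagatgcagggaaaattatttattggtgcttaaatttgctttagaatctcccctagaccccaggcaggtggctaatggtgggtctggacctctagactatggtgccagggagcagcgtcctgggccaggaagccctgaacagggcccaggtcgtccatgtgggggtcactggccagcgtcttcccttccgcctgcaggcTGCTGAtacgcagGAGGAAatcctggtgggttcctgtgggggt
Cd163: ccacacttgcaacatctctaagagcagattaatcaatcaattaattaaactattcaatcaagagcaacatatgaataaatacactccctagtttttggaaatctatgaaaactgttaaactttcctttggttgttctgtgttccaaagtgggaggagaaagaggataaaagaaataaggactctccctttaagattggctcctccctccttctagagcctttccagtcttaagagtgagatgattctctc
Marco: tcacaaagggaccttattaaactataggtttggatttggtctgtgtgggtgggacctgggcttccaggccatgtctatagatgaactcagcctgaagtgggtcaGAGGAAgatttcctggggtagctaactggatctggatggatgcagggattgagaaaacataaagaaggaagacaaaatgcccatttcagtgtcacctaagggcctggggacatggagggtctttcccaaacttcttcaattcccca
The Fcna window held 3 matches to GAGGAA, at 182, 169 and 163 bases before the RefSeq start, and 2 to TGCTGA, at 107 and 90 bases. Mrc1 held 3 matches to GAGGAA, at 180, 167 and 35 bases, and Stab1 held 1 of each, at 30 and 43 bases. Marco held 1 match to GAGGAA, at 146 bases, and neither string occurred in the Cd163 window. GAGGAA was found for 6 of the 9 genes, in 6 of their 11 windows, and in 23.3% of all 32851 windows of the same length. TGCTGA was found for 4 of the 9 genes, in 5 of the 11 windows, and in 16.1% of all windows. TGANTCA, a site of AP-1 factors, was found for 1 of the 9 genes (Folr2), in 1 of the 11 windows, and in 6.75% of all windows. GGCGCC, a site bound by the SMAD proteins of BMP signalling, was found in 0 of the 11 windows and in 9.59% of all windows. TGCTGA and TGANTCA can share letters. A match is a string of letters and not a measured binding site.

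In every BMP9 library 8 of the 10 genes stood above every control library, Timd4 overlapped between the groups, and Marco was listed at or next to 0 in both. Of the 9460 genes above the filter, 16.8% were separated in that direction and 31.2% in the other. The filter of at least 5 RPM in at least 3 libraries kept 9 of the 10, of which Lyve1, Cd163 and Fcna passed through the BMP9 libraries alone and so had to differ. Differences of mean log2(RPM + 1), taken as BMP9 minus control, ran from 0.65 to 5.33 over these 9, with a median of 3.38 beside -0.24 over all tested genes. By limma 8 of the 9 were past an adjusted p of 0.05 as higher and 0 as lower, where 12.7% of all tested genes were higher and 22.5% lower, and nothing is read from that count because the genes were chosen on this contrast. Control replicates 1, 2 and 3 summed to 708, 459.99 and 633 RPM over the 10 genes, and BMP9 replicates 4, 5 and 6 to 4414, 3988 and 5185 RPM. Mrc1, Stab1, Pf4 and F13a1 gave 88.6% to 94.9% of that sum, a share that also depends on how well each amplicon amplifies.

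**Figure D1:**
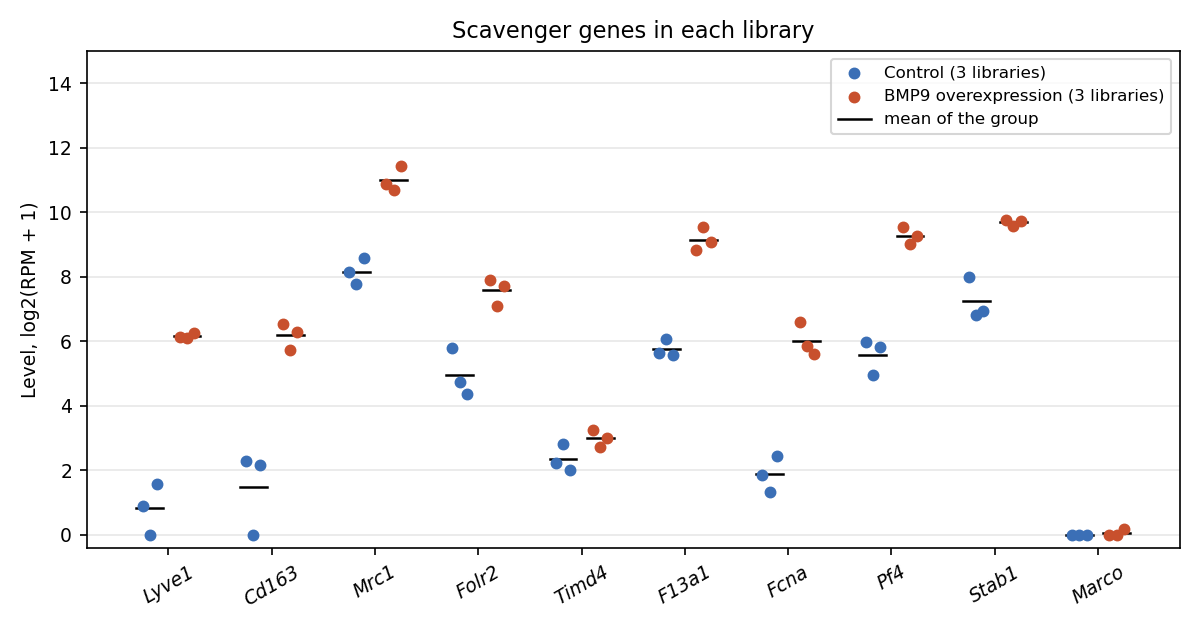
Level of each of the 10 scavenger genes on the log2(RPM + 1) scale, with 1 point per library (blue control, orange BMP9 overexpression, 3 libraries each) and a black line at the group mean. The groups are apart for 8 genes, overlap for Timd4, and lie at or next to 0 for Marco.

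The 2 genes with the largest differences encode scavenger receptors. Lyve1 (chromosome 7, 110850607 to 110863239, mm10, minus strand; values follow replicate order throughout) encodes a receptor for hyaluronan that lymphatic endothelium and perivascular macrophages share. It was at 0.873, 0 and 2 RPM in control replicates 1, 2 and 3, from 4, 0 and 4 reads, and at 68.9, 67.6 and 75.4 RPM with BMP9 (replicates 4, 5 and 6). The BMP9 libraries lay close together (coefficient of variation 5.94%), while the control values were at or near the 3-read floor. The difference was 5.33 (SE 0.41, 95% interval 4.47 to 6.19) on the log2(RPM + 1) scale, which understates a change from so low a level. Pooled reads gave a ratio of 73.2 (95% exact interval 37.1 to 170). No molecular identifiers separate PCR copies here, so such intervals and floors cover counting error only. With a pseudocount of 5 the Lyve1 difference was 3.68, and with DESeq2 on recovered reads 6.39. Cd163 (chromosome 6, 124304656 to 124330527, plus strand) encodes the receptor that takes up haemoglobin bound to haptoglobin. Its control levels were 3.93, 0 and 3.5 RPM, from 18, 0 and 7 reads, and its BMP9 levels 91.2, 51.9 and 77.7 RPM. The lowest BMP9 library was thus far above the highest control library, and the difference was 4.69 (SE 0.51), or 3.41 with a pseudocount of 5. At that pseudocount Pf4 (3.57) differed by more than Cd163.

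Mrc1 (chromosome 2, 14229392 to 14332057, plus strand) encodes the mannose receptor CD206, which internalises glycoproteins with terminal mannose. Its control levels were 279.9, 218 and 378 RPM and its BMP9 levels 1867, 1648 and 2770 RPM, a difference of 2.84 (SE 0.30). It was the most abundant of the 10 by amplicon reads in each library, with 39.5% to 59.7% of their sum. Stab1 (chromosome 14, 31139013 to 31168641, minus strand) encodes stabilin-1, a receptor for modified lipoproteins and SPARC that sinusoidal endothelium also carries. Control levels of Stab1 were 252, 112 and 121 RPM and BMP9 levels 859, 765 and 844 RPM. Control replicate 1 was the highest of its group, the BMP9 libraries varied by only 6.13%, and the difference was 2.44 (SE 0.31). Folr2 (chromosome 7, 101839988 to 101857194, minus strand) encodes the folate receptor beta of macrophages. Levels of Folr2 were 54.1, 25.7 and 19.5 RPM in control against 238, 136 and 211 RPM with BMP9, a difference of 2.61 (SE 0.36). BMP9 replicate 5, the lowest of its group, still lay above control replicate 1, the highest of the other.

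Among the secreted proteins, Fcna (chromosome 2, 25624666 to 25628030, minus strand) encodes ficolin A, a soluble lectin that can start the lectin pathway of complement. It was at 2.62, 1.51 and 4.5 RPM in control replicates, from 12, 2 and 9 reads, and at 95.2, 57.1 and 47.1 RPM with BMP9, a difference of 4.13 (SE 0.39), or 3.14 with a pseudocount of 5 and 4.75 with edgeR. F13a1 (chromosome 13, 36867178 to 37050244, minus strand) encodes the A subunit of coagulation factor XIII, a transglutaminase that crosslinks fibrin and is made by macrophages and megakaryocytes. Its control levels were 48.9, 66.6 and 47.0 RPM and its BMP9 levels 449.7, 746 and 543 RPM, a difference of 3.38 (SE 0.28). F13a1 was highest in BMP9 replicate 5, the library that held the lowest BMP9 value of 7 other members. Pf4 (chromosome 5, 90772435 to 90773383, plus strand) encodes the chemokine CXCL4, known from platelet granules and also a transcript of resident macrophages. Pf4 stood at 62.0, 30.3 and 55.0 RPM in control against 737, 511 and 609.7 RPM with BMP9, a difference of 3.68 (SE 0.30). Its share of the summed 10 genes was 6.58% to 8.75% in control and 11.8% to 16.7% in BMP9 libraries, and these ranges did not overlap.

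Timd4 and Marco stood apart from the others. Timd4 (chromosome 11, 46810800 to 46844332, plus strand) encodes TIM-4, a phosphatidylserine receptor of long-lived resident macrophages that binds dying cells. It was at 3.71, 6.05 and 3 RPM in control against 8.61, 5.67 and 7.08 RPM with BMP9, so that control replicate 2 lay above BMP9 replicate 5. The difference was 0.65 (SE 0.38, 95% interval -0.16 to 1.47) and lay between 0.30 and 1.05 over the 15 alternative settings that kept the gene. Marco (chromosome 1, 120474538 to 120505024, minus strand) encodes a class A scavenger receptor of alveolar and splenic marginal zone macrophages. It had 0 reads of 7904976 in the control libraries, which allows up to 0.380 RPM, and 4 reads of 34765122 in the BMP9 libraries, all in replicate 6, where they make 0.141 RPM. In each other library 1 read stands for at least 0.218 RPM, so such a level could easily have been missed there, and no fold is given. A listed 0 need not mean an absent transcript in this panel: Fth1, the ferritin heavy chain that most cells express, had 0 reads in 5 libraries and 3 in BMP9 replicate 6, and C1qa, a chain of the same complex as the abundant C1qb, had 0 reads in every control library. How well the Marco amplicon works was not tested.

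**Figure D2:**
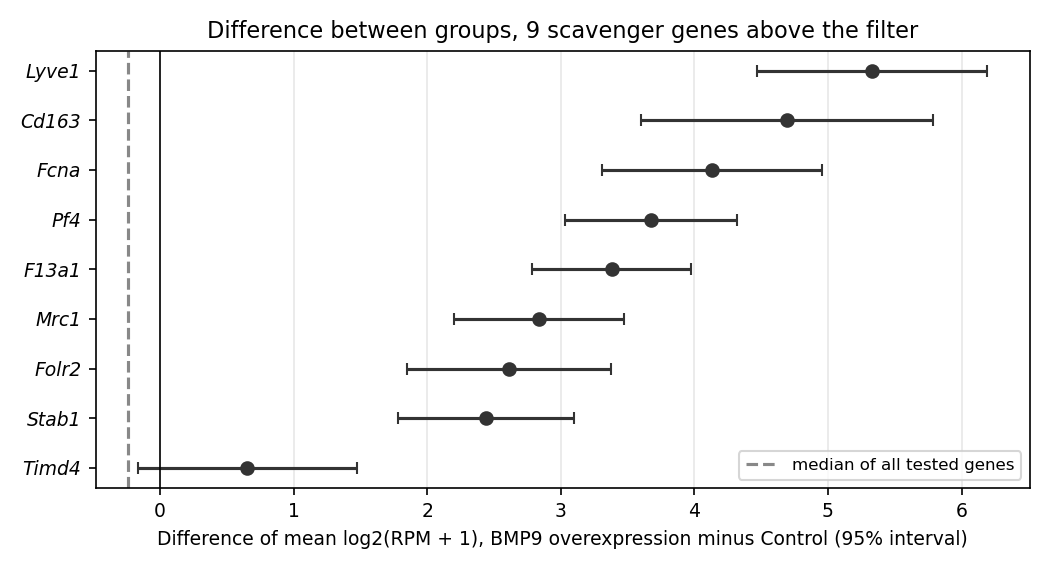
Difference of mean log2(RPM + 1) between BMP9 overexpression and control for the 9 scavenger genes above the filter, with the 95% interval of the limma fit across all genes (3 libraries per group) and a dashed line at the median of all tested genes, -0.24. In this plot 8 genes lie between 2.44 and 5.33, and the interval of Timd4 runs from -0.16 to 1.47.

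TMM scaling, a normalization to the bulk of genes, moved the median of all tested genes from -0.24 to 0.00 and the share of higher genes among all called ones from 36.0% to 54.1%. With it the 9 differences had a median of 3.63, from 0.86 for Timd4 to 5.51 for Lyve1. Within the earlier run time stamp, which sets BMP9 replicate 4 alone against the 3 controls, Lyve1 differed by 5.30, Cd163 by 5.04, Fcna by 4.71, Pf4 by 3.94, F13a1 by 3.05, Folr2 by 2.94, Mrc1 by 2.71, Stab1 by 2.50 and Timd4 by 0.91. All 9 differences were thus positive within that stamp too, where the BMP9 group is a single library.

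Since general macrophage transcripts were also higher in BMP9 libraries, each member was set against them within its own library. Of the 14 pan-macrophage markers 13 rose by limma, with a median difference of 1.68, and 8 within the earlier stamp. Itgam, the integrin CD11b of myeloid and NK cells, rose by 3.21 (SE 0.31), Cd68, a lysosomal glycoprotein of macrophages, by 2.77 (SE 0.28), and Fcgr1, a receptor for IgG, by 2.53 (SE 0.32). Tyrobp, an adaptor that NK cells share with myeloid cells, differed by -0.10 (adjusted p = 0.81). Relative to the mean log2 level of the 14 markers, 6 of the 9 members were higher in every BMP9 library than in any control library, Folr2 and Stab1 overlapped, and Timd4 was lower. The level of Lyve1 minus that mean was -6.39, -7.04 and -5.86 for control replicates and -2.85, -2.83 and -2.55 for BMP9 replicates, a difference of 3.69. The relative levels of Cd163, Fcna, Pf4, F13a1 and Mrc1 differed by 3.05, 2.49, 2.03, 1.74 and 1.2 log2 units.

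The reference mattered. Relative to Cd68 alone, Lyve1 (2.56), Cd163 (1.93), Fcna (1.37) and Pf4 (0.91) remained apart between the groups, while F13a1 (0.61), Mrc1 (0.07), Folr2 (-0.15) and Stab1 (-0.33) overlapped. Relative to Itgam alone, Lyve1 (2.12), Cd163 (1.48) and Fcna (0.92) were apart, and 5 others overlapped. Pf4 was at 0.46, F13a1 at 0.17, Mrc1 at -0.38, Folr2 at -0.60 and Stab1 at -0.77. Mrc1, Folr2 and Stab1 thus had another sign against Itgam than against the mean of the 14 markers, and Folr2 and Stab1 also against Cd68. Lyve1, Cd163 and Fcna were thus higher against all 3 references, and they are, besides Marco, the members with the fewest control reads. Relative to each of the 3 references Timd4 was lower in every BMP9 library than in any control library, with differences of -0.99, -2.11 and -2.56. These relative levels come from the contrast on which the genes were chosen.

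**Figure D3:**
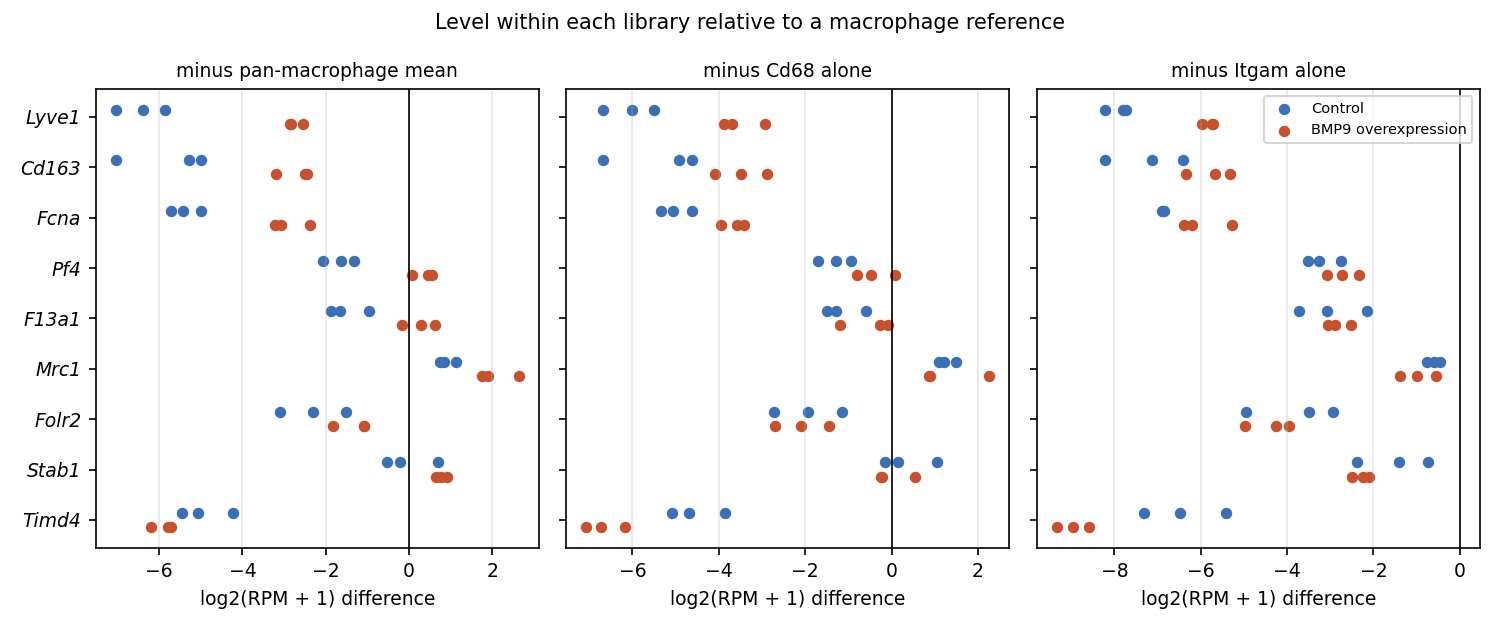
Level of each scavenger gene minus a macrophage reference in the same library, on the log2(RPM + 1) scale, with 1 point per library (blue control, orange BMP9 overexpression) and 1 panel per reference (mean of 14 pan-macrophage markers, Cd68 alone, Itgam alone). Lyve1, Cd163 and Fcna lie to the right in BMP9 libraries in all 3 panels, Timd4 lies to the left, F13a1, Mrc1, Folr2 and Stab1 overlap against both Cd68 and Itgam, and Pf4 overlaps against Itgam.

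Other genes known from this kind of macrophage were counted from a list. Of 17 tested companions 16 rose and 0 fell (median 2.43), and 6 of the 23 measured were below the filter. Of all tested genes 12.7% rose and 22.5% fell. Over the 16 alternatives, the companion Clec10a kept its call in 11 and Wwp1 in 7. Among those that rose, Gas6, Igf1, Vsig4, C4b and Ltc4s passed the filter through the BMP9 libraries alone and so had to differ. Hmox1, haem oxygenase 1, was at 36.4, 77.9 and 46.5 RPM in control against 828, 599.6 and 606 RPM with BMP9 (3.69, SE 0.30, limma adjusted p = 2.4e-06). Cbr2, a carbonyl reductase, rose by 3.21 (SE 0.30) and Gas6, a ligand that bridges dying cells to their receptors, by 3.52 (SE 0.38). Vsig4, a complement receptor of resident macrophages, had 1 read in all control libraries and 30.9, 7.26 and 13.4 RPM with BMP9 (3.87, SE 0.48), a difference that ran from 1.98 to 7.10 over the alternatives. Differences of genes with so few control reads depend on the pseudocount and on other settings. Ranges over all alternatives were 2.61 to 4.05 for Gas6 and 2.35 to 4.33 for Igf1. For genes named further on they were 2.61 to 4.49 for Cd36, 2.30 to 4.19 for Hyal1 and 2.45 to 4.45 for C4b. Ppbp ran from 2.70 to 4.97 and Cxcl1 from 2.51 to 5.36. The highest values of Gas6 and C4b came from the earlier stamp, where 1 BMP9 library remains. Igf1, a growth factor that such macrophages secrete, rose by 3.73 (SE 0.50) and Maf, a transcription factor of resident macrophages, by 1.44 (SE 0.27). The tested companion that did not pass was Cd209d, a SIGN-family lectin (-0.87, adjusted p = 0.14). Cd5l, a secreted scavenger protein of Kupffer cells, was listed at 0 in all libraries.

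Among 8 tested scavenger receptors outside the set 6 rose and 1 fell (median 1.26). Cd36, a receptor of oxidised lipoproteins and fatty acids, was at 2.18, 3.03 and 1 RPM in control against 44.6, 33.6 and 35.9 RPM with BMP9 (3.72, SE 0.37). It passed the filter through the BMP9 libraries alone and so had to differ. Lrp1, the endocytic receptor that also takes up haem bound to haemopexin, rose by 2.47 (SE 0.35), Cd44, another hyaluronan receptor, by 1.25 (SE 0.26), and Cxcl16, a receptor for oxidised lipoprotein and a chemokine, by 1.27 (SE 0.27). Msr1, a class A receptor like Marco, rose by 1.01 (SE 0.32, adjusted p = 0.022). That call was lost without control replicate 2 (0.89), control replicate 3 (0.90) or BMP9 replicate 6 (0.98). It was also lost without a filter (1.01) and with every library thinned to 1321762 reads (0.90). Within the earlier stamp, where 1 BMP9 library remains, the Msr1 difference was 1.16. Scarb2, a lysosomal membrane protein, fell by 1.33 (SE 0.34), and without control replicate 1, where its difference was -1.06, did not pass. Stab2, the paralogue of Stab1 on sinusoidal endothelium, had 8 reads in control and 3 in BMP9 libraries and was below the filter.

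Genes around the members' ligands were counted in the same way. For haemoglobin and haem, the cargo of Cd163, 5 of 8 tested genes rose and 1 fell (median 1.72). Besides Hmox1 and Lrp1, Slc11a1, a phagosomal metal transporter, rose by 1.95 (SE 0.26), and Tfrc, the transferrin receptor that dividing cells need, fell by 2.35 (SE 0.31). For hyaluronan, the ligand of Lyve1, 3 of 5 tested genes rose and 1 fell (median 0.95). Hyal1, a lysosomal hyaluronidase, was at 2.18, 0.757 and 2 RPM in control against 26.3, 25.9 and 31.0 RPM with BMP9 (3.48, SE 0.37). It too passed the filter through the BMP9 libraries alone and so had to differ. Hmmr, a hyaluronan-binding protein of dividing cells, fell by 2.25 (SE 0.37), and the synthase genes Has1, Has2 and Has3 were below the filter. For folate, the ligand of Folr2, 2 of 7 tested genes rose and 4 fell (median -0.92), or 2 and 2 with TMM. Shmt2, a mitochondrial enzyme of the folate cycle, fell by 1.67 (SE 0.30), and Folr1, the folate receptor alpha, was listed at 0.

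For the uptake of dying cells, which TIM-4 serves, 5 of 13 tested genes rose and 1 fell (median 0.10). Gas6 passed the filter through the BMP9 libraries alone and Tyro3 through the control libraries alone, so both had to differ. C1qb, a chain of complement C1q, was at 232, 278 and 336 RPM in control against 1907, 1230.5 and 1255 RPM with BMP9 (2.36, SE 0.28, adjusted p = 2.4e-05). Itgb5, an integrin chain, rose by 1.68 (SE 0.27), Havcr2, which encodes the TIM-4 relative TIM-3, by 1.76 (SE 0.31), and Tyro3, a receptor for Gas6, fell by 1.91 (SE 0.42) but did not pass within the earlier stamp (-1.39). Around Fcna, 3 genes of complement passed the filter and all 3 rose: C3ar1 by 2.39 (SE 0.29), C4b by 3.58 (SE 0.45) and C3 by 2.62 (SE 0.38). C4b passed the filter through the BMP9 libraries alone. Fcnb, the ficolin B gene, was at 1.01, 1.36 and 0.529 RPM in BMP9 libraries and at 0 in control libraries. Around F13a1, Tgm2, the tissue transglutaminase, rose by 2.55 (SE 0.30), and F13b, the carrier subunit of factor XIII, was listed at 0. Around Pf4, all 4 tested genes of its chemokine cluster rose: Ppbp by 3.90 (SE 0.36), Cxcl1 by 3.91 (SE 0.49), Cxcl3 by 3.90 (SE 0.62) and Cxcl2 by 3.06 (SE 0.55). Of these, Ppbp, Cxcl1 and Cxcl3 passed the filter through the BMP9 libraries alone and so had to differ.

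Of 18 tested inducers and regulators 7 rose and 1 fell (median 0.71), and 11 rose with TMM, edgeR or DESeq2. Il4, among those that rose, passed the filter through the BMP9 libraries alone and so had to differ. Csf1, the growth factor of macrophages, rose by 1.89 (SE 0.27), its receptor gene Csf1r by 1.70 (SE 0.33), and Il10rb, a subunit of the IL-10 receptor, by 1.83 (SE 0.25). Irf8, a transcription factor of monocytes and dendritic cells, fell by 1.42 (SE 0.28). Il10, an inducer of Cd163 in macrophages, was at 3.49, 4.54 and 5.5 RPM in control against 13.2, 5.67 and 6.76 RPM with BMP9. Its difference was 0.73 (adjusted p = 0.17), and it also did not pass in 14 of the 15 alternatives that kept it. The exception was the stamp as a covariate (1.38, adjusted p = 0.041), a fit that rests on BMP9 replicate 4, the highest of its group.

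**Figure D4:**
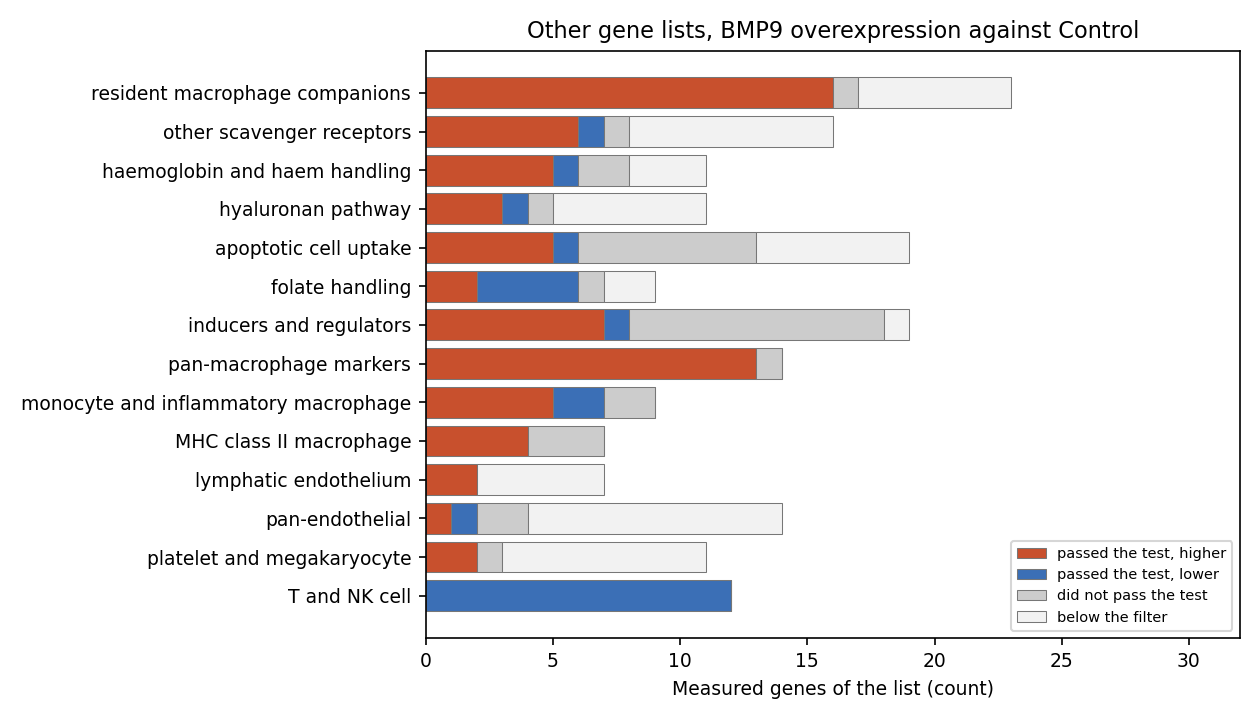
Number of measured genes of 14 gene lists that passed the limma test at an adjusted p of 0.05 as higher or lower in BMP9 overexpression libraries, that did not pass, or that were below the filter (stacked bars). Companions of resident macrophages were higher for 16 of 23 measured genes, some of which passed the filter through the BMP9 libraries alone.

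Markers of other cells that carry single members were set beside them. Prox1, the master regulator of lymphatic endothelium, which also expresses Lyve1, had 1 read in control and 5 in BMP9 libraries, and Flt4, Reln, Mmrn1 and Foxc2 were at most at 1 RPM in any library. All 7 measured lymphatic genes summed to 53.7 to 162 RPM in control libraries and 288 to 717 RPM in BMP9 libraries. That sum came almost wholly from Pdpn (3.92, SE 0.43) and Nrp2 (1.52, SE 0.37), both also expressed by macrophages. For Pf4 and F13a1, the platelet gene Gp6 was listed at 0, and Gp9, Gp1bb and Tubb1 reached at most 0.680 RPM, while Ppbp and Itga2b (2.01, SE 0.39) rose. Below the filter, Treml1 was at 0.218, 0 and 0 RPM in control against 3.04, 1.81 and 2.43 RPM with BMP9, Gp1ba averaged 0.564 and 1.30 RPM, and Clec1b 0.0727 and 1.14 RPM. The 11 platelet genes summed to 36.3 to 67.5 RPM in control libraries and 68.1 to 112 RPM in BMP9 libraries, and Itgb3, which macrophages also express, averaged 44.4 RPM of that in control and 23.2 RPM in BMP9 libraries. For Stab1, the pan-endothelial sums given above overlapped between the groups. Flt1 (1.83, SE 0.45) was higher and Kdr (-1.32, SE 0.43) lower, with differences of 1.28 and -1.48 within the earlier stamp. Neither passed when the stamp entered as a covariate. Kdr also did not pass with TMM (-1.11) or without control replicate 2 (-0.89) or BMP9 replicate 6 (-1.23). Kdr passed the filter through the control libraries alone and so had to differ.

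Genes of monocyte-derived and MHC class II macrophages were read against the members as well. Of 7 MHC class II genes 4 rose and 0 fell (median 1.08), among them Ciita, the class II transactivator (1.24, SE 0.29; 0.92 and not past the threshold within the earlier stamp), and H2-DMb1, which helps load peptides (1.28, SE 0.31). Cd74, the invariant chain, rose by 1.36 (SE 0.37), or by 1.10 without control replicate 1, which did not pass, whereas H2-Ab1 differed by -0.48 (adjusted p = 0.24) and H2-Aa by 0.27 (adjusted p = 0.54). Of 9 monocyte and inflammatory macrophage genes 5 rose and 2 fell, or 5 and 1 with TMM. Vcan, a proteoglycan of monocytes, rose by 3.41 (SE 0.34), Thbs1, thrombospondin-1, by 3.68 (SE 0.41), and F10, coagulation factor X, by 2.99 (SE 0.38). Cx3cr1, a receptor of patrolling monocytes, differed by 0.05 (adjusted p = 0.92).

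All 12 T and NK cell markers fell (median -2.61), from sums of 4978 to 5357 RPM in control libraries to 698 to 1249.9 RPM in BMP9 libraries. Within the earlier stamp 10 passed, and Cd3d (-0.34, adjusted p = 0.55) and Cd2 (-0.71, adjusted p = 0.12) did not. Cd3d also did not pass without control replicate 3 (-1.15), BMP9 replicate 5 (-1.10) or BMP9 replicate 6 (-1.08). Nor did it pass with edgeR (-1.05) or without a filter (-1.34). With the stamp as a covariate, Cd3d (-0.34), Cd2 (-0.71) and Klrb1c (-0.95) did not pass. Of 11 genes that respond to tissue dissociation 6 rose and 0 fell (median 0.98), led by Atf3, a stress-induced transcription factor (2.43, SE 0.30). The part of these shifts, and of those in macrophage, platelet and lymphatic markers, in the members' differences was not tested.

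**Figure D5:**
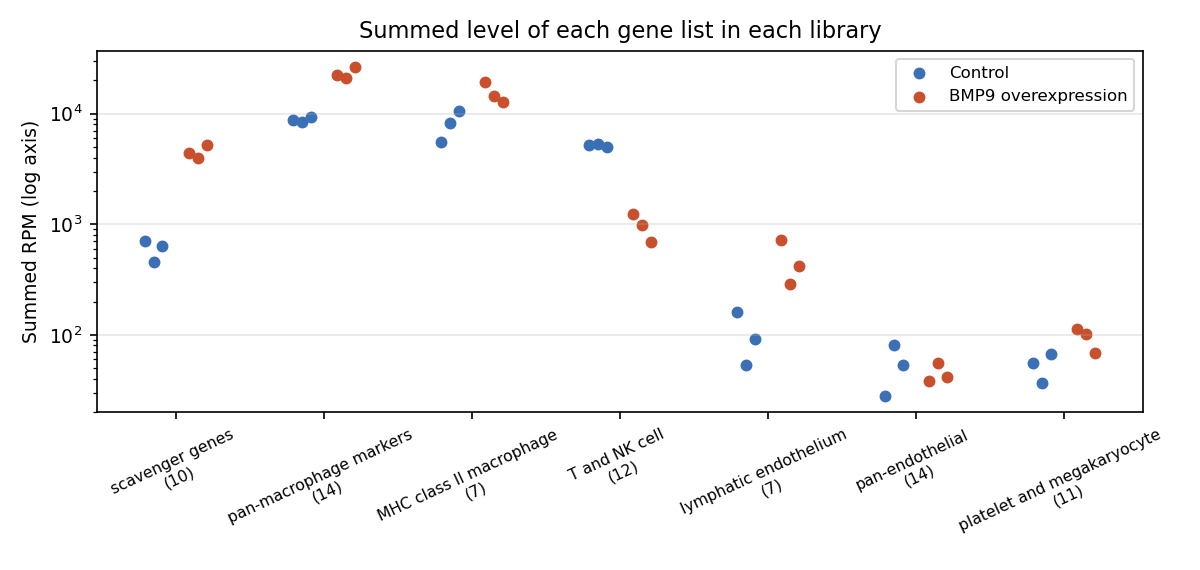
Summed RPM (log axis) of the 10 scavenger genes and of 6 marker lists, with 1 point per library (blue control, orange BMP9 overexpression). The scavenger sums span 460 to 708 RPM in control and 3988 to 5185 RPM in BMP9 libraries, and the pan-endothelial sums overlap.

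Among the 9451 other tested genes, those whose log2(RPM + 1) profile over the 6 libraries was most like the mean profile of the 9 members were Apba1, Hyal1, Ccl2, Npl, Errfi1, Mmp13, Spred1 and Lmo2, with Pearson's r of 0.995 to 0.998. With 2 groups that lie apart such values mostly restate the group difference, and 365 genes had r above 0.95. The members' own r with that profile was 0.955 to 0.999 for 8 genes and 0.702 for Timd4. Mmp13, a collagenase, was at 0.873, 0 and 1.5 RPM in control against 99.8, 105 and 95.1 RPM with BMP9. Ccl2, a monocyte chemoattractant, was at 81.6, 56.0 and 61.0 RPM against 584, 457 and 568 RPM. Mmp13 and Hyal1 passed the filter through the BMP9 libraries alone and so had to differ.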

How the data were processed

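RNA of the sorted cells was read with a mouse AmpliSeq transcriptome panel, per the labels' protocols, and mm10 is the build named in the submitters' processing notes. The aligner and counting tool were not given in the sources used here. Per the file headers and column sums, the authors' values are RPM. Reads recovered from them were whole (within 0.05 reads) for 100% of nonzero values.

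Titles gave groups and replicates. limma 3.58.1 (trend, R 4.3.3) was fitted to log2(RPM + 1) of all genes that had 5 RPM or more in 3 or more libraries, with Benjamini-Hochberg adjustment over all of them, and it gave each SE and adjusted p. On recovered reads, edgeR 4.0.16 (quasi-likelihood) called 1693 genes higher and 1421 lower and DESeq2 1.42.0 called 1771 and 1546. The members, the 18 other lists (212 genes, 10 unmatched) and the motifs were chosen with earlier results of these data known. Genes named from a list are those with its smallest p, genes tied to a member, and some picked after their values were seen. Coordinates are GENCODE M21 genes, not amplicons. Gene copies, overlapping genes and antisense genes may share reads.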

Additional observations from a re-analysis of the deposited data

How the results depend on the processing

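The members' median difference (3.38) lay between 3.05 and 3.68 over the 16 alternatives, which is no evidence of stability because the members were chosen on this contrast. Thinning every library to 1321762 reads was chosen after seeing the data. Depth limits Lyve1, Fcna and Cd163, with 8, 23 and 25 control reads in all, and Marco, with 0. No paired analysis was possible because the groups share no replicate number (1 to 3 against 4 to 6). For each change below, other than those from fewer genes or libraries, the cause was not tested.

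With TMM 1383 of all genes were lower instead of 2130, pan-endothelial genes lower 0, monocyte genes lower 1, inducers higher 11 and folate genes lower 2. With edgeR monocyte genes lower were 1, inducers higher 11 and folate genes lower 2, and with DESeq2 monocyte genes lower were 1 and inducers higher 11. Within the earlier stamp pan-macrophage genes higher were 8, uptake genes lower 0, folate genes higher 0, inducers lower 2, and pan-endothelial genes higher 0 and lower 0. With the stamp as a covariate, which also rests on BMP9 replicate 4, uptake genes lower were 0, folate genes higher 1, and pan-endothelial genes higher 0 and lower 0. With a mean of at least 20 RPM, uptake genes lower were 0, hyaluronan genes higher 1 and lower 0, pan-endothelial genes higher 0 and lower 0, and platelet genes higher 1. Without a filter, other scavenger receptors lower were 0, folate genes higher 0 and lower 2, monocyte genes lower 1, MHC class II genes higher 2, lymphatic genes higher 1, pan-endothelial genes higher 0 and dissociation genes higher 3. With thinned reads, monocyte genes lower were 1 and pan-endothelial genes lower 0. Relative to Itgam alone Mrc1 reversed, to -0.38, and Folr2 and Stab1, whose groups overlapped under each reference, had negative differences against Itgam (-0.60 and -0.77) and Cd68 (-0.15 and -0.33).

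Leaving out 1 library at a time gave all genes lower 1367 to 2312, other scavenger receptors lower 0 to 1, uptake genes lower 1 to 2, hyaluronan genes lower 1 to 2, folate genes higher 1 to 2, folate genes lower 2 to 4, inducers lower 1 to 2, monocyte genes lower 1 to 2, MHC class II genes higher 2 to 4, pan-endothelial genes lower 0 to 2, platelet genes lower 0 to 1 and dissociation genes lower 0 to 1; all genes lower were 1367 without control replicate 1.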
